A study of Gallus gallus with 27 samples.

Results

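The 993 intervals described here are positions of open chromatin at which cells sorted as positive for the E2 reporter and negative for the NC2 reporter gave more ATAC-seq reads at Hamburger-Hamilton stage 25 (HH25) than both other sorted populations of that stage. They were chosen from 140062 intervals of a common table, of which they make up 0.709%. Each count was divided by its library's total over the 140062 intervals to give CPM, the count per 1e6 reads counted in the intervals. The 3 libraries of a group were averaged, and 1 CPM was added. An interval was kept where the HH25 E2-only value was at least 75% above the negative value and at least 75% above the double-positive value. It was dropped where the HH18 E2-only value was at least 3 times both of the other HH18 values. Both HH25 ratios were passed by 1062 intervals, and the HH18 condition removed 69 of them. All 993 are 200 bases wide.

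ATAC-seq reads accessible DNA with a transposase that inserts sequencing adapters where chromatin is open. The cells came from the vagal region of wild-type chick embryos that had been electroporated at HH8 to HH9 with the NC2:citrine and E2:citrine reporters, then dissociated with dispase and trypsin and sorted by fluorescence. At each of HH18 and HH25 the groups were E2-only cells (NC2-, E2+), double-positive cells (NC2+, E2+) and negative cells (NC2-, E2-), with 3 libraries in each of these 6 groups. All groups carry the same electroporation. Citrine is the label of both reporters, the sources used here do not say how the sort distinguished them, and membership of a group rests on the labels alone. Electroporated reporters reach a part of the cells, so a cell without signal need not differ in identity from a cell with signal. The labels speak of biological replicates for each stage without saying how many embryos were pooled.

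The vagal neural crest leaves the dorsal neural tube at the level of the hindbrain and first somites, and is best known for giving rise to the enteric nervous system and to parts of the heart outflow tract. NC2 and E2 are known from background as enhancers of FOXD3 and SOX10. FOXD3 is an early regulator of neural crest identity, and SOX10 is kept on in glial and enteric progenitors. Intervals of open chromatin away from promoters are often enhancers, and their accessibility changes as progenitors take on later fates. Without a galGal5 genome, the intervals are given by position, without genes, sequence or motifs. For the same reason the labelled cell types were not checked against marker genes.

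Library totals, which are the reads counted in the intervals, ran from 2609023 to 5559179 at HH25 and from 992341 to 6976050 at HH18. The shallowest, HH18 negative replicate 2, held 364 members at the lowest count the table gives, which is 1 in each library. Spearman correlations between libraries of a group were 0.694 to 0.914, and no 2 libraries were identical.

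At HH25 the members were intervals of middling height in E2-only cells and low in the other cells. Their median level was 7.2 CPM in E2-only, 2.91 CPM in double-positive and 3 CPM in negative cells. Over all intervals the HH25 medians were 4.57, 4.33 and 4.2 CPM in the same order. The median member thus lay above the median interval in E2-only cells and below it in both other populations. In bulk chromatin a larger fraction of open cells and more reads per open cell cannot be told apart. In reads, the median member had 31, 33 and 28 counts in the HH25 E2-only libraries, 7, 8 and 12 in the double-positive libraries and 18, 14 and 12 in the negative libraries.

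The ratios that chose the members were mostly close to the threshold. The HH25 ratio of E2-only to negative had a median of 1.95 and a 95th percentile of 2.68, and that of E2-only to double-positive a median of 2 and a 95th percentile of 2.79. Both ratios reached 2 at 204 members, 2.5 at 8 and 3 at 2. Over all intervals both medians were close to 1. With library totals scaled by TMM in place of plain totals, 454 of the 993 members passed the rule, and no other interval did. Just inside the threshold lay chr4:17096400-17096600, with a ratio of 2.18 to negative cells and, for double-positive cells, a ratio at the threshold. It stood at 10.3, 8.99 and 8.47 CPM in E2-only, 6.13, 3.96 and 4.5 CPM in double-positive and 2.7, 6.01 and 2.41 CPM in negative libraries. Just outside lay chr2:89721718-89721918, with 2.81, 2.19 and 2.24 CPM in E2-only, 0.383, 0.36 and 2.12 CPM in double-positive and 0.54, 0.601 and 0.963 CPM in negative libraries. At both intervals the HH25 E2-only libraries lay above all other HH25 libraries, which did not hold at every interval near the threshold. At chr4:55479894-55480094, also just inside, an E2-only library at 5.7 CPM lay below a double-positive library at 6.08 CPM. At chr8:25546211-25546411, inside as well, an E2-only library at 3.95 CPM lay below a negative library at 3.96 CPM. Outside, and nearer the threshold, the E2-only libraries were apart at chr1:184379321-184379521 and chr2:115009606-115009806.

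**Figure D1:**
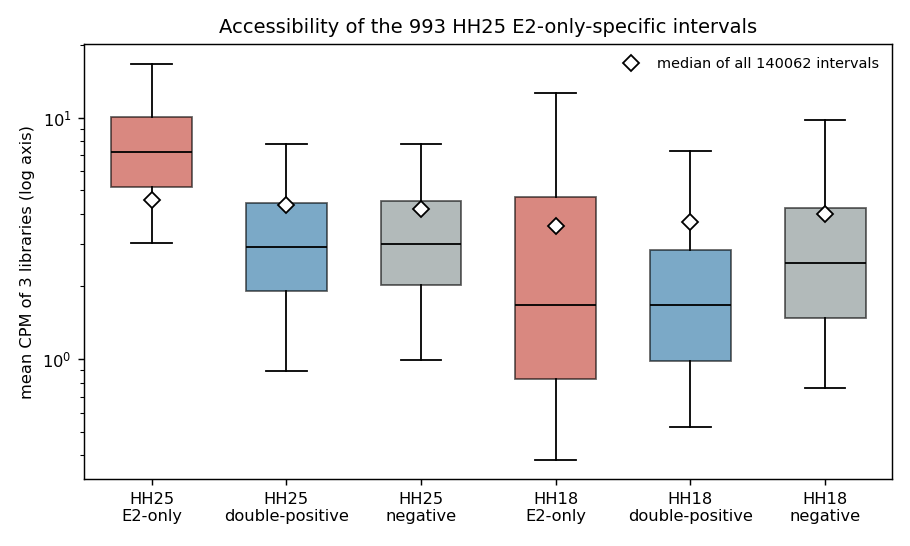
Boxes show the group mean CPM (log axis) of the 993 members in each population at HH25 (left) and HH18 (right), with the median line, the quartiles and whiskers at the 5th and 95th percentiles. White diamonds mark the median of all 140062 intervals, which the members exceed in HH25 E2-only cells, where their median is 7.2 CPM, and lie below in the other 5 groups.

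Library by library, 789 members (79.5%) had every HH25 E2-only library above all 6 other HH25 libraries, against 3.55% of all intervals. Every E2-only library exceeded all 3 negative libraries at 882 members (88.8%; all intervals 14.9%) and all 3 double-positive libraries at 853 (85.9%; all intervals 14.3%). These counts describe the choice of members, since the same libraries entered the rule. In the edgeR quasi-likelihood fit over all tested intervals, which had 975 of the members, 274 were called higher in E2-only than in negative cells at a Benjamini-Hochberg adjusted p below 0.05, with a background of 3.79% of intervals called higher and 3.46% lower. Against double-positive cells 237 members were called higher, with a background of 2.07% higher and 7% lower. Of the 975 members, 81 were called higher in both comparisons and 545 were called in neither. No background was computed for these joint counts. These calls use the libraries and the contrasts of the rule too, and are given as descriptions.

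Because those libraries chose the members, the choice was repeated on 2 replicate numbers and read in the third, which the rule then did not use. Chosen without replicate 1, 1734 intervals passed the rule, and E2-only was above both other populations in the replicate 1 libraries at 61.9% of them, against 32.1% of all intervals. Chosen without replicate 2, 1549 passed, and the share was 66.1% against 33.8%. Chosen without replicate 3, 1875 passed, and the share was 59.7% against 31.9%. In each of the 3 splits this share was larger among the chosen intervals than among all intervals. Of the chosen intervals 602, 617 and 663 were members, in the same order, so the shares are not rates for the 993 members. The ratios of the rule were reached less often. In the unused libraries 12.6%, 15.6% and 11.2% of the chosen intervals were past both ratios of the rule, against 2.97%, 3.55% and 2.95% of all intervals. The median ratio to negative cells in the unused libraries was 1.28, 1.48 and 1.45, and that to double-positive cells 1.48, 1.4 and 1.29. The unused libraries were also scaled by plain totals, and whether they helped to define the intervals of the table is not given. The splits are therefore descriptions and cannot separate scaling from a population difference. Between 602 and 663 of the members were chosen again in a split, and 194 of the 993 members (19.5%) passed the rule with each of the 9 HH25 libraries left out in turn.

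**Figure D2:**
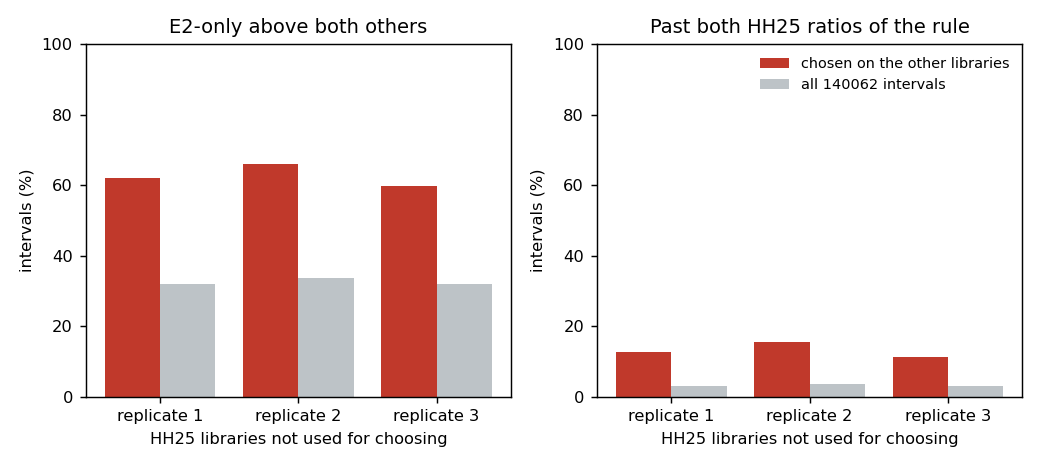
Bars give the share of intervals, in percent, at which HH25 E2-only exceeded both other populations (left) or was past both HH25 ratios of the rule (right) in the libraries of 1 replicate number. Red bars are intervals chosen on the other libraries and grey bars are all 140062 intervals: the red bars reach 59.7% to 66.1% on the left and 11.2% to 15.6% on the right, each above its grey bar.

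The first and second ranks of the members rested on E2-only replicate 1. The top member by the smaller of its HH25 ratios, chr1:51096603-51096803, had 117, 1.97 and 0.748 CPM in the 3 E2-only libraries, or 497, 9 and 3 reads. Its double-positive libraries held 17.2, 4.32 and 5.02 CPM and its negative libraries 1.26, 4 and 0.482 CPM. Without E2-only replicate 1 its ratios were 0.81 to negative and 0.239 to double-positive cells. The second, chr8:27859099-27859299, had 89.1, 0.439 and 0.997 CPM in E2-only, 17.6, 1.08 and 1.59 CPM in double-positive and 1.44, 2.6 and 0.241 CPM in negative libraries. Without E2-only replicate 1 its ratios were 0.708 and 0.221. At both intervals E2-only replicates 2 and 3 lay among or below the other populations.

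A pair of other members had the same form. At chr1:51067756-51067956 the E2-only libraries held 89.1, 2.19 and 14.7 CPM, the double-positive libraries 39.9, 2.88 and 2.38 CPM and the negative libraries 1.8, 2.6 and 2.65 CPM. At chr14:4195059-4195259 they held 66.8, 11.6 and 7.73 CPM in E2-only, 15.3, 7.56 and 7.4 CPM in double-positive and 5.4, 12.6 and 9.63 CPM in negative cells. At all 4 intervals replicate 1 was the highest library of both the E2-only and the double-positive group. A count over the table, with limits set after these values were seen, looked for intervals with at least 20 CPM in a library and at least 5 times both other libraries of its group. HH25 E2-only replicate 1 had 4 such intervals, and all 4 are these members. HH25 double-positive replicate 1 had 2, of which 1 is a member, and HH18 negative replicate 2 had 2, of which 1 is a member. HH25 double-positive replicate 3 and HH18 negative replicate 3 had 1 each, neither of them a member. The other 13 libraries had none.

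The signal at the pair of top members did not extend to their neighbours. At chr1:51096603-51096803, the nearest interval upstream, 7.15 kb away, held 3.99, 4.17 and 7.23 CPM in the E2-only libraries, and the nearest downstream, at 3.45 kb, held 2.58, 8.55 and 5.73 CPM. Those neighbours were high in double-positive cells, at 15.7, 17.3 and 13.2 CPM upstream and 17.6, 10.4 and 10.6 CPM downstream. At chr8:27859099-27859299, the neighbours 4.39 kb upstream and 2.69 kb downstream held 1.41, 3.29 and 1.5 CPM and 2.81, 2.19 and 0.997 CPM in E2-only libraries. The source of the reads in replicate 1 was not tested. Of the 5 members with the highest HH25 E2-only mean, 4 are these intervals. The remaining member of the 5, chr3:18449604-18449804, was high in every E2-only library, at 25.8, 40.6 and 25.9 CPM, against 14.6, 13.3 and 19.6 CPM in double-positive and 11.9, 15.2 and 12.3 CPM in negative cells.

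**Figure D3:**
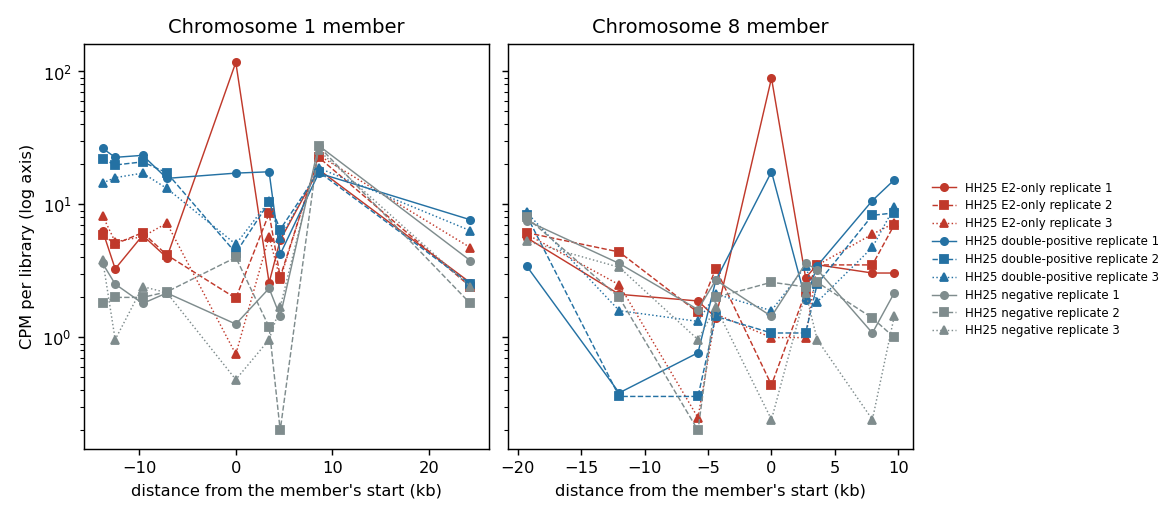
CPM per HH25 library (log axis) at the pair of top members, placed at 0 kb, and at the 4 nearest intervals on each side, by distance between starts in kb. Colours give the population and markers the replicate: E2-only replicate 1 rises to 117 and 89.1 CPM at the members alone, while at the neighbouring intervals it lies near the other E2-only libraries.

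Apart from these, the top of the list held members that were steady over libraries, though low. Of the 10 members with the largest smaller ratio, 7 passed the rule without E2-only replicate 1, and all 10 passed without replicate 2 and without replicate 3. The leading steady member, chr3:108983577-108983777, had 5.16, 6.8 and 4.49 CPM in E2-only, 1.15, 1.8 and 1.06 CPM in double-positive and 1.8, 0.801 and 0.963 CPM in negative libraries. The next, chr5:34304944-34305144, had 9.14, 9.43 and 11 CPM in E2-only, 2.68, 2.88 and 3.44 CPM in double-positive and 3.96, 2.8 and 2.17 CPM in negative libraries. At both of them the E2-only libraries lay above all others without overlap. At chr5:34304944-34305144 the HH18 levels were low in every population, at 0.672 ± 0.346 CPM in E2-only, 1.82 ± 1.01 in double-positive and 1.1 ± 0.8 in negative cells (SD, n = 3 each).

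Steady members came to their HH25 state from different HH18 states. At chr1:32021115-32021315 the HH25 libraries held 9.14, 8.55 and 5.98 CPM in E2-only, 0.767, 2.16 and 3.97 CPM in double-positive and 2.88, 2.2 and 2.17 CPM in negative cells, after HH18 means of 0.368, 1.4 and 0.761 CPM in that order. At chr2:126818734-126818934 the HH25 levels were 3.91 ± 1.5 CPM in E2-only, 0.961 ± 0.535 in double-positive and 0.754 ± 0.308 in negative cells (SD, n = 3 each). At HH18 they were 8.06 ± 0.949, 5.22 ± 1.64 and 8.21 ± 3.58 CPM in the same order. Its E2-only libraries were thus lower at HH25 than at HH18, and the other populations were lower still. At chr2:28291510-28291710 the HH25 libraries held 9.14, 5.48 and 8.22 CPM in E2-only, 0.767, 2.88 and 3.44 CPM in double-positive and 2.34, 2.6 and 2.41 CPM in negative cells. At HH18 it was the negative cells that were high, with 1, 3.09 and 1.72 CPM in E2-only, 0.863, 1.33 and 0.662 CPM in double-positive and 9.16, 7.05 and 5.76 CPM in negative libraries.

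**Figure D4:**
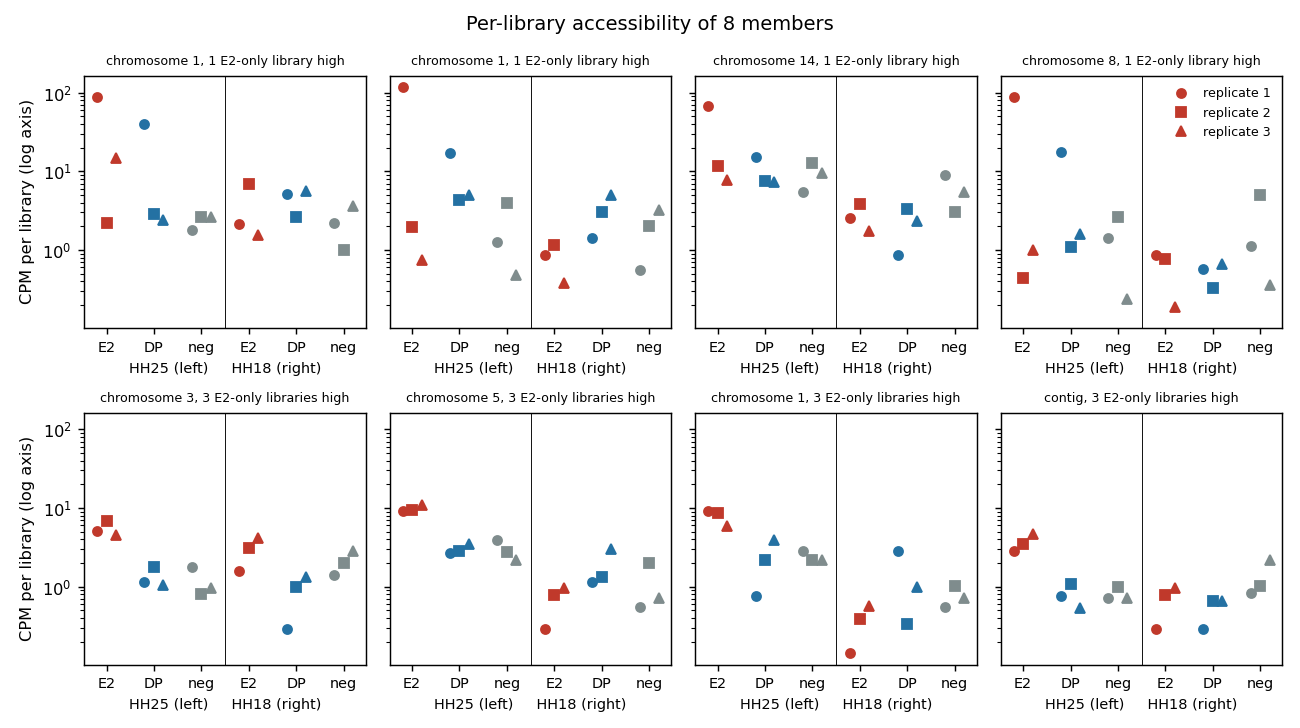
CPM per library (log axis) at 8 members, with E2-only (E2), double-positive (DP) and negative (neg) cells at HH25 left and HH18 right of the line and a marker for each replicate. In the upper row HH25 E2-only replicate 1 stands at 66.8 to 117 CPM, above every other library, with double-positive replicate 1 the highest of its group; in the lower row the 3 HH25 E2-only libraries lie together above the other HH25 libraries.

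Before HH25, E2-only cells did not stand out at most members. At HH18 the median member had 1.67 CPM in E2-only, 1.68 CPM in double-positive and 2.5 CPM in negative cells, against 3.56, 3.7 and 3.99 CPM over all intervals. Negative cells were the highest HH18 population at 496 members (49.9%; all intervals 43.1%), E2-only cells at 336 (33.8%; all intervals 28.1%) and double-positive cells at 161 (16.2%; all intervals 28.7%). Where counts are at the lowest value of 1, this ranking follows library depth. At chr1:60724563-60724763, with 1 count in every HH18 library, the means were 0.24 CPM in E2-only, 0.317 in double-positive and 0.548 in negative cells. The part of depth in these shares was not tested. All 3 populations lay under 2 CPM at 257 members (25.9%; all intervals 8.83%), and some population reached 10 CPM at 128 (12.9%; all intervals 33.4%).

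A part of the members was already higher in E2-only cells at HH18, as was a part of all intervals. At HH18, E2-only cells were at least 75% above both other populations at 132 members (13.3%; all intervals 9.6%). These 132 had HH25 medians of 5.24 CPM in E2-only, 1.84 in double-positive and 2.15 in negative cells, and HH18 medians of 8.68, 2.42 and 2.89 CPM. The share is held down by the rule, which removed the 69 intervals with both HH18 ratios at or above 3. Those 69 had HH18 medians of 17.8 CPM in E2-only, 3.07 in double-positive and 3.9 in negative cells. Nearest the limit on the kept side was chr1:24467007-24467207, at 15.3, 15.5 and 15.7 CPM in HH18 E2-only, 4.6, 5.66 and 3.31 CPM in double-positive and 3.61, 1.01 and 1.8 CPM in negative libraries, with HH18 ratios of 2.99 to double-positive and 5.26 to negative. On the removed side was chr4:49822249-49822449, at 7.17, 6.19 and 8.99 CPM, 1.44, 2 and 1.99 CPM, and 1.66, 1.01 and 1.8 CPM in the same order, with ratios of 3.01 and 3.39. By the edgeR fit 191 members (19.6%) were called higher in HH18 E2-only than in negative cells, with a background of 18.2%. Lower calls numbered 169 (17.3%), with a background of 14.4%. Against HH18 double-positive cells 203 (20.8%) were higher and 62 (6.36%) lower, with backgrounds of 16.5% and 17%. The HH18 condition of the rule used both of these comparisons, so these counts are descriptions.

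The HH18 difference between double-positive and negative cells was not a ratio of the rule, and the same edgeR fit was used to test it. Both populations are denominators in the HH18 condition of the rule, which removed 69 intervals. Double-positive cells, the population sorted as positive for both neural crest reporters, were higher at 48 members (4.92%) and lower at 145 (14.9%) of the 975 tested. The backgrounds were 17.8% of intervals higher and 13.9% lower. The members were chosen to be high in HH25 E2-only libraries, which can carry an interval past the filter on low counts, so these shares are descriptions beside the background. The median log2 fold change was -0.38 over the members and -0.05 over all tested intervals. The members had few reads in these libraries, with a median of 5 counts in each double-positive library and 9, 2 and 7 in the negative libraries, and the part of low counts in the share called higher was not tested. Among the 189 tested members that passed the rule with each HH25 library left out, 6 were higher and 33 lower, with a median log2 fold change of -0.3. Scaling by library totals alone gave 36 higher and 202 lower members. It moved the median of all intervals to -0.27 and that of the members to -0.59, and it turned the split of all intervals to 20139 higher and 26695 lower calls, against 23806 and 18636 under TMM scaling.

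For the members called lower in HH18 double-positive cells, that call fixed low HH18 double-positive values and the rule fixed the HH25 E2-only level, so their medians are a description. Their HH25 medians were 9.64 CPM in E2-only, 4.04 in double-positive and 4.21 in negative cells, and their HH18 medians 1.77, 1.32 and 6.1 CPM. At chr14:13981204-13981404 HH18 double-positive libraries held 0.575, 1.33 and 1.66 CPM and negative libraries 8.32, 10.1 and 19.1 CPM, a log2 fold change of -3.20 (SE 0.46, edgeR adjusted p = 6.1e-09). The groups did not overlap, which was a condition for naming the interval. HH18 E2-only cells lay near double-positive cells there, at 2.15, 2.32 and 2.1 CPM. At HH25 the same interval stood at 19.9, 21.1 and 18.2 CPM in E2-only, 11.1, 5.76 and 8.46 CPM in double-positive and 8.63, 8.61 and 14.2 CPM in negative libraries.

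The HH18 values of the other 4 members with the most negative log2 fold changes follow. At chr19:1514842-1515042 HH18 double-positive libraries held 0.288, 0.666 and 0.662 CPM, against 9.71, 9.07 and 3.96 CPM in negative libraries (log2 fold change -3.54, SE 0.68, edgeR adjusted p = 8.3e-06). At chr5:58598351-58598551 the double-positive libraries were all at the lowest count of 1, at 0.288, 0.333 and 0.331 CPM, and the negative libraries held 3.88, 3.02 and 5.76 CPM (edgeR adjusted p = 1.0e-04). Its fitted log2 fold change of -3.47 depends on how such low counts are handled and is not a bound. At chr21:4806490-4806690 the values were 0.575, 0.999 and 1.66 CPM in double-positive and 15.3, 15.1 and 7.92 CPM in negative libraries (log2 fold change -3.32, SE 0.54, edgeR adjusted p = 1.6e-07). On the Z chromosome, chrZ:6251640-6251840 held 0.863, 0.666 and 0.331 CPM in double-positive and 6.1, 10.1 and 4.32 CPM in negative libraries (log2 fold change -3.05, SE 0.64, edgeR adjusted p = 4.6e-05). The double-positive counts were 1, 2 and 2 at the chromosome 19 interval and 3, 2 and 1 at the Z interval. The sizes of both fold changes thus depend on low counts too. In each of these comparisons the double-positive libraries lay below every negative library, which was a condition for naming the interval.

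The 48 members called higher in HH18 double-positive cells were selected at both stages, by that call at HH18 and by the rule at HH25, so their medians are a description as well. Their HH25 medians were 5.96 CPM in E2-only, 2.51 in double-positive and 2.2 in negative cells, and their HH18 medians 4.48, 6.57 and 2.1 CPM. At chr3:44968085-44968285 HH18 double-positive libraries held 15.2, 8.32 and 15.6 CPM, against 3.05, 2.02 and 0.72 CPM in negative libraries (log2 fold change 2.90, SE 0.45, edgeR adjusted p = 5.6e-08), with E2-only libraries between them at 5.73, 5.03 and 6.12 CPM. At HH25 it stood at 9.85, 15.6 and 11.2 CPM in E2-only, 4.6, 8.28 and 3.17 CPM in double-positive and 8.09, 6.21 and 3.61 CPM in negative libraries.

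The next members by the size of this fold change differed in level. At chr1:9515942-9516142 HH18 double-positive libraries held 11.5, 15.6 and 9.93 CPM and negative libraries 2.22, 2.02 and 1.8 CPM (log2 fold change 2.80, SE 0.48, edgeR adjusted p = 6.2e-07). At chr12:572627-572827 they held 10.1, 7.99 and 8.28 CPM and 1.39, 1.01 and 1.8 CPM (log2 fold change 2.76, SE 0.53, edgeR adjusted p = 9.8e-06). At chr7:4217165-4217365 they held 4.31, 3 and 3.64 CPM and 0.277, 1.01 and 0.72 CPM (log2 fold change 2.87, SE 0.73, edgeR adjusted p = 8.2e-04). Its negative counts were 1, 1 and 2, so this fold change depends on how low counts are handled, and its double-positive mean was 3.57 CPM at HH25 and 3.65 CPM at HH18. The HH18 groups of all 3 were apart, since only such members were named. At chr22:920953-921153 the double-positive libraries, at 7.19, 5.66 and 2.98 CPM, lay above negative libraries at 1.11, 1.01 and 0.36 CPM, and E2-only libraries were higher than both, at 10.9, 20.1 and 10.7 CPM. Its log2 fold change for double-positive over negative cells was 2.88 (SE 0.64, edgeR adjusted p = 1.4e-04). The negative counts there were 4, 1 and 1, so the size of this fold change depends on low counts as well.

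At HH25 few members were called different between double-positive and negative cells. The edgeR fit called 3 of 975 higher and 5 lower, against backgrounds of 13.2% higher and 7.83% lower. Both populations stand in the denominators of the rule, which keeps both below E2-only cells, so the small counts are read as a description. The 3 higher calls were chr1:51096603-51096803, chr1:51067756-51067956 and chr8:27859099-27859299, all among the 4 members led by replicate 1. Without HH25 double-positive replicate 1 their log2 fold changes were 1.33, 0.25 and -0.03, with edgeR adjusted p of 0.24, 0.864 and 0.989. DESeq2 called none higher among the 991 members to which it gave an adjusted p, with 6 at an unadjusted p below 0.05. The members without an adjusted p included chr1:51096603-51096803, so the DESeq2 result does not cover that call. Whether it covers the other higher calls is not given here. Among the 5 lower calls was chr6:5455527-5455727, at 0.767, 0.72 and 0.793 CPM in double-positive against 4.14, 1.8 and 1.93 CPM in negative libraries (log2 fold change -1.72, SE 0.60, edgeR adjusted p = 0.0288), with E2-only cells at 8.21, 6.36 and 4.98 CPM. At chr1:165245480-165245680 the values were 0.383, 3.24 and 2.12 CPM in double-positive and 6.3, 4.6 and 3.85 CPM in negative libraries (log2 fold change -1.29, SE 0.44, edgeR adjusted p = 0.0252). Without HH25 negative replicate 1 none of the 5 was called, with 14 members lower at an unadjusted p below 0.05.

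**Figure D5:**
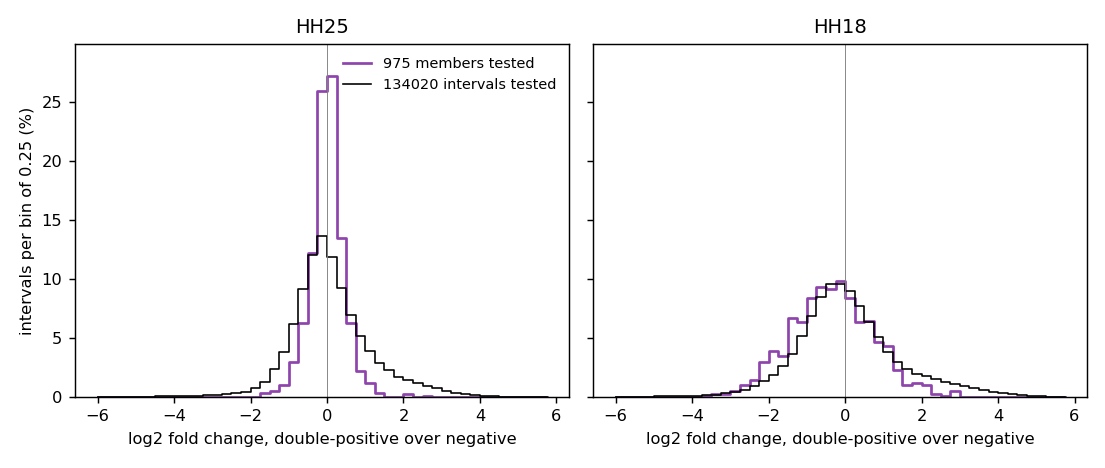
Percent of intervals per bin of 0.25 in the edgeR log2 fold change of double-positive over negative cells, for the 975 tested members (purple) and all 134020 tested intervals (black) at HH25 (left) and HH18 (right). At HH25 the members are narrowly gathered around a median of 0.01; at HH18 they lie to the negative side, with a median of -0.38 against -0.05.

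The difference between stages in that contrast was tested in the same fit, as double-positive over negative at HH25 minus the same at HH18. It was called higher at 46 members, with a background of 3.57%, and lower at 11, with a background of 3.29%. Its median was 0.36 on the log2 scale over the members and -0.01 over all intervals. The rule bounds its HH25 term. Of the 145 members lower in double-positive cells at HH18, 2 were also called lower at HH25 and 143 were not called. The 48 higher at HH18 were all not called at HH25. Among all 975 tested members only 3 were called higher and 5 lower at HH25. No matching share over all intervals was computed, so these counts are descriptions and do not show a loss of the HH18 difference.

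From HH18 to HH25, the largest number of members rose in the cells that define them. In E2-only cells 605 of 975 were called higher at HH25 and 129 lower, with backgrounds of 26.1% and 27.2%, and the median log2 fold change was 1.91. The rule chose members for a high HH25 E2-only level, so this count describes the choice. In double-positive cells, where the rule asks for a low HH25 level, 294 were called higher at HH25 and 104 lower, with backgrounds of 16.2% and 17.3% and a median log2 fold change of 0.57. In negative cells 163 were higher and 119 lower, with backgrounds of 10.7% and 11% and a median of 0.16.

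Of the 4 members with the largest fitted rises in E2-only cells, 3 had 1 or 2 reads in each HH18 E2-only library. The remaining one, chr1:51096603-51096803, rests on HH25 replicate 1 and had 6, 3 and 2 reads in the HH18 E2-only libraries. At chr12:4873869-4874069 the HH25 E2-only libraries held 11, 11.6 and 14.5 CPM, against 0.143, 0.387 and 0.191 CPM at HH18, where each had the lowest count of 1. Double-positive cells held 4.22, 5.04 and 7.4 CPM at HH25 and 1.15, 0.666 and 0.331 CPM at HH18. At chr1:2678748-2678948 the E2-only libraries held 12, 18.6 and 14 CPM at HH25 and 0.143, 0.387 and 0.382 CPM at HH18. Negative cells were already open there at HH18, at 3.88, 10.1 and 3.6 CPM. At chr1:25192787-25192987 the E2-only values were 13.1, 10.3 and 10.7 CPM at HH25 and 1 read in each library at HH18.

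The members with the largest falls in E2-only cells were lower at HH25 than at HH18. At HH25 they were still highest in E2-only cells, which the rule requires. At chr1:147184836-147185036 E2-only libraries held 3.52, 3.07 and 3.49 CPM at HH25 and 31.2, 27.8 and 32.7 CPM at HH18. Double-positive libraries there held 1.53, 1.8 and 1.06 CPM at HH25 and 17.3, 12.6 and 13.2 CPM at HH18. At chr3:27153309-27153509 E2-only libraries held 12, 5.7 and 6.48 CPM at HH25 and 39, 39.1 and 31 CPM at HH18, and double-positive libraries 4.98, 1.8 and 3.44 CPM at HH25 and 25, 18.6 and 17.9 CPM at HH18. At chr2:25300595-25300795 the E2-only values were 2.58, 2.19 and 2.49 CPM at HH25 and 8.89, 13.5 and 11.5 CPM at HH18. The stage groups of each of these members did not overlap.

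The members were spread over the genome. Chromosomes 1 to 5 held 62.9% of them and 53.2% of all intervals, chromosomes 11 to 33 held 14.6% and 19.9%, chromosomes Z and W 4.83% and 5.69%, and contigs outside the assembled chromosomes 2.11% and 6.05%. Chromosome 18 had the largest share among chromosomes with at least 1000 intervals, with 18 of 1747 intervals (1.03%), and chromosome 17 the smallest, with 5 of 1737 (0.288%). These shares were not tested.

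Neighbouring intervals were read as well, without a test. The interval nearest to a member was higher in HH25 E2-only than in both other populations at 40.3% of members, against 32.2% over all intervals. The nearest interval was itself a member for 18 members (1.83%; all intervals 0.702%). Another member lay within 5 kb of 20 members, which formed 10 pairs, and no run was longer than 2. No background was computed for these pairs. In the pair at chr1:60721393-60721593 and chr1:60724563-60724763 both intervals had the same form. The first held 9.61, 12.1 and 10.2 CPM in HH25 E2-only, 4.22, 5.76 and 4.23 CPM in double-positive and 3.78, 3.8 and 7.71 CPM in negative libraries, and the second 6.8, 6.8 and 7.23 CPM, 3.83, 2.88 and 2.91 CPM, and 2.34, 3.2 and 3.61 CPM in the same order. At HH18 the E2-only libraries of both had the lowest count of 1. On chromosome 10, chr10:19420971-19421171 and chr10:19425656-19425856 held 8.67, 10.1 and 15.7 CPM and 12.2, 11 and 17.9 CPM in HH25 E2-only libraries, against 3.45, 2.52 and 6.61 CPM and 4.6, 7.56 and 8.46 CPM in double-positive libraries. On chromosome 18, chr18:2592163-2592363 and chr18:2594538-2594738 held 6.33, 7.9 and 3.24 CPM and 7.74, 8.34 and 4.24 CPM in HH25 E2-only libraries, against 1.92, 2.52 and 1.85 CPM and 1.92, 2.16 and 5.82 CPM in double-positive libraries.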

How the data were processed

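The deposited table holds whole-number read counts per interval; the authors' counts were used as deposited. Tools named in the submitters' processing notes are Bowtie 1.0.0, MACS2 and HOMER 4.7, and the build is galGal5; no step is tied to them. The sources used here do not give the choice of intervals, duplicate handling, any shift of read ends for the transposase, or whether coordinates start at 0 or 1. Per the labels, tagmentation took 20 min, with 11 PCR cycles and 40 bp paired-end reads. The lowest count in each library is 1, so a deposited 1 may stand for 0. A floor of 3 counts equals 0.43 to 3.02 CPM and covers counting error only, since amplified reads are not independent molecules. A further 9 per-sample columns, whose stage matches no label, were not used.

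CPM is the count per 1e6 of the column total. The rule asked for HH25 ratios of at least 1.75 after adding 1 CPM to group means. Tests used edgeR 4.0.16 in R 4.3.3 (filterByExpr, TMM, quasi-likelihood fit with 1 mean per group over 18 libraries, 134020 intervals, adjusted p below 0.05) and were tested on simulated data, in which some of the changed intervals were recovered. DESeq2 1.42.0 was an alternative. The first-named group is the numerator. SE is the absolute log2 fold change divided by the square root of the quasi-likelihood F statistic, so it was derived from the test. P-values set the difference between groups against a spread between libraries, which the fit estimates over all 18 libraries and moderates across intervals. The labels call the libraries biological replicates. The members, the named intervals and the tests were chosen with earlier results of these data known. Named intervals are the 10 with the largest smaller HH25 ratio, the 5 with the highest HH25 E2-only mean, those nearest each limit of the rule, 3 pairs within 5 kb, the most positive and negative log2 fold changes of double-positive over negative cells among called members with groups apart (5 each at HH18; at HH25 1 higher and 4 lower met this, of up to 4 each), and the 4 largest and 4 smallest log2 fold changes of E2-only cells across stages, called and apart or not, given here in part, a choice made after their values were seen.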

Additional observations from a re-analysis of the deposited data

Results flagged for a closer look

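The change between stages in the difference of double-positive and negative cells was read from the edgeR fit over all intervals, as the HH25 log2 fold change minus that at HH18. It was called higher at 46 members (4.72%) and lower at 11 (1.13%), with backgrounds of 3.57% and 3.29%. Since the rule keeps both populations below E2-only cells at HH25, each change includes the effect of the choice of members.

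Of the intervals named for extreme HH18 differences between these populations, 6 were called. They were chosen on the HH18 difference and the rule bounds the HH25 difference, so their values are descriptions with no test. At chr3:44968085-44968285 the change was -3.07 on the log2 scale, with double-positive cells at 5.35 ± 2.64 CPM at HH25 and 13 ± 4.09 CPM at HH18. At chr12:572627-572827 it was -2.64. In the other direction, chr19:1514842-1515042 changed by 3.80 and chr5:58598351-58598551 by 3.85, where HH18 double-positive counts were 1, 2 and 2 at the chromosome 19 interval and 1 in each library at the chromosome 5 interval, so both sizes rest on values near the floor. At chr14:13981204-13981404 the change was 2.93, with double-positive cells at 8.45 ± 2.68 CPM at HH25 and 1.19 ± 0.554 CPM at HH18 (SD, n = 3 each) and negative cells at 10.5 ± 3.23 and 12.5 ± 5.77 CPM. At chrZ:6251640-6251840 it was 3.18. Intervals named in other ways were called as well. The change was 2.75 at chr2:28291510-28291710, named by its HH25 ratios. It was -1.65 at chr3:27153309-27153509, named by its E2-only change between stages. The rule bounds the HH25 difference there too.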

How the results depend on the processing

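The number of members followed the rule's settings: 1669 with 0.5 CPM added and 352 with 2 CPM, 3914 at a ratio of 1.5 and 8 at 2.5, 454 with TMM-scaled totals (all of them among the 993) and 1645 with the median of the 3 libraries (654 shared). Leaving out a library or a replicate number gave 959 to 1875. With alternatives added after seeing the data, 194 members passed with each HH25 library left out in turn, and 989 remained without the 4 members high in HH25 E2-only replicate 1. The HH18 double-positive against negative calls were 48 higher and 145 lower members. At an adjusted p below 0.01 they were 28 and 81, and after thinning each library to the smallest total, which left 202 members tested, 11 and 48. With only the compared groups in the fit 30 were higher. Leaving out a library gave 32 to 44 higher and 105 to 126 lower. The HH25 calls were 3 higher and 5 lower. Higher calls were 1 to 5 with a library left out and 0 when thinned (1 at an unadjusted p below 0.05), with DESeq2 (6) or without the 4 members. Lower calls were 0 to 5 with a library left out, 0 at an adjusted p below 0.01 (16 at an unadjusted p below 0.05), 1 with only the compared groups and 1 when thinned. The cause of these differences was not tested, except that thinning leaves fewer reads and intervals.

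Replicate numbers were not taken to pair the samples, since not every correlation of same-numbered deviations was over 0.1. They were 0.11, 0.07 and 0.03 between HH25 E2-only and negative libraries, against -0.09 to 0.02 for different numbers. Between double-positive and negative libraries they were -0.02 to 0.01 at HH18 and -0.04 to 0.02 at HH25. Different numbers there gave -0.03 to 0.01 and -0.04 to 0.07. The part of low counts in these values was not tested, so the limit cannot exclude a pairing. With the replicate number as a block, 46 members were higher and 138 lower at HH18, and 2 higher and 5 lower at HH25. Depth limits the HH18 values, with median counts of 2 to 12 per member in the HH18 libraries.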
